A study of Mus musculus with 12 samples.

Results

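The genes described are 10 genes of neutrophil recruitment, followed across 12 mouse tumours. The genes were chosen by symbol from the deposited count table, and 10 of 10 were found among its 24956 gene symbols. They are the CXCR2 ligands Cxcl1, Cxcl2, Cxcl3, Cxcl5 and Ppbp, the receptor Cxcr2, the neutrophil genes S100a8 and S100a9, and the growth factor Csf3 with its receptor Csf3r. All tumours grew from PDA.69, a single pancreatic ductal adenocarcinoma line that came from KPC mice, a genetic model of the disease, and forms tumours with few T cells according to its label. The hosts of 6 tumours were wild type (WT), and those of the other 6 were Alb-Cre+/+ Stat3f/f, in which the albumin promoter drives Cre and so removes floxed Stat3 from hepatocytes. The tumour cells of both groups are the same line, and the labels give no treatment, host age or sex. The study asked how hepatocytes and the serum amyloid A proteins they release bear on immune evasion by the tumour, and the comparison here shows what the neutrophil chemokine axis did at RNA level in the tumour itself.

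Neutrophils leave the blood towards chemokines of the CXC class that carry the amino acids Glu-Leu-Arg before the first cysteines and bind the receptor CXCR2. In pancreatic cancer these chemokines are made by tumour cells and stroma, are induced by interleukin 1, tumour necrosis factor and NF-kB, and draw in neutrophils that can hold back T cells. Granulocyte colony-stimulating factor, the product of Csf3, drives neutrophil production in bone marrow through its receptor Csf3r, which signals largely through STAT3. S100a8 and S100a9 encode the subunits of calprotectin, the main protein of the neutrophil cytosol, and are also made by monocytes and by stressed epithelium.

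The libraries held 5691707 to 8085609 counts with a gene symbol. Reads came from the 3' ends of transcripts of fixed, paraffin-embedded tissue, so counts do not scale with transcript length. Levels of different genes are set side by side as CPM (counts relative to the TMM-scaled library size). Differences between genes in 3' end annotation and in priming remain in such comparisons. Stat3 itself ran from 232 to 273 CPM in WT, against 202 to 302 CPM in Alb-Cre Stat3f/f tumours, and since it was deleted in the host liver this level does not check the labels. The 20 genes of the acinar list, digestive enzymes and granule proteins of normal exocrine pancreas, took 0.534 to 20.2% of counts in WT (median 3.56%), against 0.739 to 38.8% in Alb-Cre Stat3f/f tumours (median 25.04%). More than 15% was seen in Alb-Cre Stat3f/f 1, 2, 3 and 4 as well as in WT 5. For genes followed through the alternative fits, values without these 5 acinar-rich tumours are given where they change a direction or a call. Of the Alb-Cre Stat3f/f tumours only 5 and 6 stay in those fits, beside WT 1, 2, 3, 4 and 6. With so few tumours a call can be lost at an unchanged fold change. Whether the tumours are from separate mice is not labelled, so p-values measure only the spread between these samples, which may be technical. Sample descriptions open with a number of unstated meaning, and all WT samples carry higher ones than all Alb-Cre Stat3f/f samples, so whatever follows that order cannot be told apart from the genotype.

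The 5 ligand genes form a cluster on chromosome 5 (GRCm38, GENCODE M21, all on the plus strand and protein coding). In order they are Cxcl5 (90759360 to 90761624), Ppbp (90768518 to 90770063), Cxcl3 (90786103 to 90789600), Cxcl1 (90891241 to 90893115) and Cxcl2 (90903871 to 90905938). Pf4 (90772435 to 90773383), a platelet chemokine, and Cxcl15 (90794534 to 90803067) lie between them. S100a8 (90668978 to 90670035, plus strand) and S100a9 (90692632 to 90695721, minus strand) are neighbours on chromosome 3. Cxcr2 is on chromosome 1 (74153989 to 74161246), Csf3r on chromosome 4 (126024550 to 126044440) and Csf3 on chromosome 11 (98701263 to 98703629), all 3 on the plus strand.

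The RefSeq promoter table (GRCm38.p6, 250 bases before to 50 after a start site) held 8 of the 10 genes, all but Cxcl5 and Csf3. It was searched on both strands for an NF-kB type of motif, GGG, any 2 letters and then TTTCC, and for a STAT type, TTCNNNGAA. The windows of Cxcl1 and Cxcl2 held 2 matches of the former each and Cxcl3 held 1, while the other 5 held 0. Over 32851 promoter windows of the same length 1.63% held at least 1 match. The exact run GGGAATTTCC was in all 3 of these ligand promoters, at -71, -97 and -73 from the start site, against 0.0883% of all windows, and this run was picked after the matches were seen. The search for TTCNNNGAA found 0 matches in the 8 windows, against 8.30% of all windows with at least 1. The 3 stretches are shown because they are what the promoters of these close paralogs have in common, each with 20 bases before the shared run and on the plus strand. Capitals mark every match of the NF-kB type on either strand, and the letters ataaaa of a TATA-type box follow at -34, -57 and -29.
Cxcl1, chr5:90891154-90891253: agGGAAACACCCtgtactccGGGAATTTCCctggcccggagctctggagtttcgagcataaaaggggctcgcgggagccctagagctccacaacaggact
Cxcl2, chr5:90903782-90903881: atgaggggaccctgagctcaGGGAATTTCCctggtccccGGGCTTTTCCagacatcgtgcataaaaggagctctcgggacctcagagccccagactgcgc
Cxcl3, chr5:90786008-90786107: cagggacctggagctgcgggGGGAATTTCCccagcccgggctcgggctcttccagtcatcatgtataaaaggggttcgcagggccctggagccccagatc
Aligned on the shared run without gaps, the Cxcl1 stretch had the same letter as that of Cxcl2 at 42 of 100 positions. With that of Cxcl3 it matched at 42, and those of Cxcl2 and Cxcl3 matched at 32. Each count includes the shared run, and like bases that lie at shifted positions are not counted. A match of letters is a description and not evidence of binding.

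No member passed the comparison of the hosts. Of the 8 members that passed the low count filter 5 had a positive and 3 a negative log2 fold change (Alb-Cre Stat3f/f over WT), with a median of 0.14 against 0.00 over all genes tested. In the edgeR quasi-likelihood test (Benjamini-Hochberg adjusted over all genes) 0 of 8 were higher and 0 lower, where 2.23% of the 12856 tested genes were called higher, 0.747% lower and 2.98% in either direction. In 0 of the 10 did every Alb-Cre Stat3f/f tumour lie above, or every one below, all WT tumours, against 1.37% and 0.646% of tested genes. At an unadjusted p under 0.05 there was 1 member of 8, Cxcr2, against 19.4% of all genes. DESeq2 and limma-voom also called 0 members, as did every alternative that left out a tumour. The background itself moved with single tumours, from 141 genes higher without Alb-Cre Stat3f/f 1 to 471 without Alb-Cre Stat3f/f 5 and from 37 to 222 lower. In bulk tumours fewer cells of a type and less RNA per cell cannot be told apart.

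**Figure D1:**
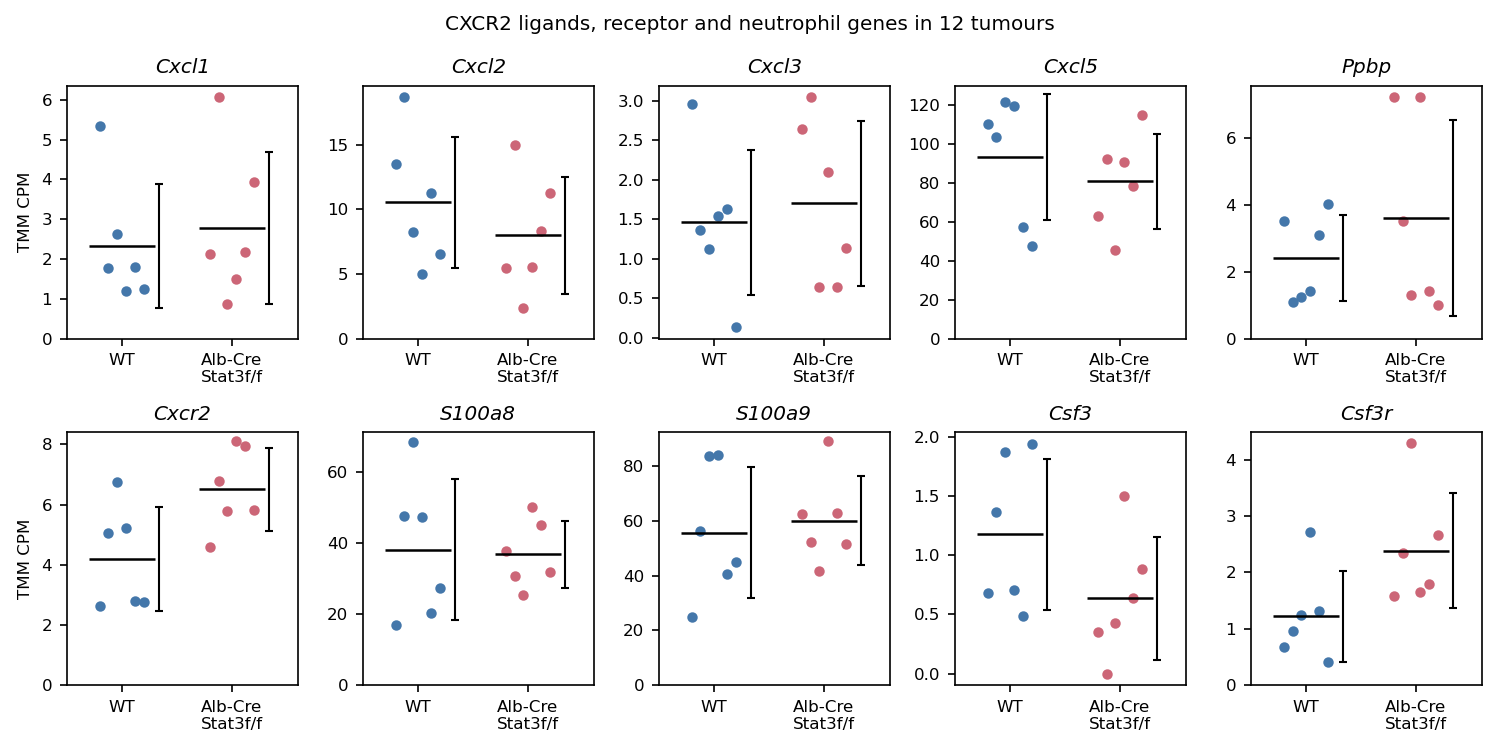
TMM-scaled CPM (y axis, linear) of the 10 genes in each of the 6 WT (blue) and 6 Alb-Cre Stat3f/f (red) tumours, with the group mean as a line and the SD as a bar beside it. The 2 groups overlap in every panel, and Cxcl5, from 45.4 to 121 CPM, lies far above the other ligands.

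Cxcl5 was the main CXCR2 ligand transcript in all 12 tumours. It encodes a chemokine known from epithelial cells and fibroblasts, and it made up 76.3 to 92.9% of the summed CPM of the 5 ligands. In WT tumours it had 47.5 CPM at the lowest, a median of 107 and 121 at the highest. In Alb-Cre Stat3f/f tumours these were 45.4, 84.5 and 115 CPM. WT 1 to 4 lay above 100 CPM, WT 5 and WT 6 lay at 57.4 and 47.5, and the Alb-Cre Stat3f/f tumours were spread over the same range. Cxcl5 had a log2 fold change of -0.21 ± 0.28 (SE), with a 95% interval of -0.81 to 0.39 (edgeR adjusted p = 0.734). On the linear scale this interval runs from 0.572-fold to 1.31-fold. A change of 2-fold in either direction lies outside this interval, which is from all 12 tumours. Without the 5 acinar-rich tumours the log2 fold change was -0.05 ± 0.36.

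Cxcl2, a ligand made at once by activated macrophages and epithelium, was next in level by group mean and median, although Ppbp exceeded it in Alb-Cre Stat3f/f 1 and 4. It had 4.97, 9.76 and 18.7 CPM in WT tumours (lowest, median and highest), against 2.36, 6.94 and 14.96 in Alb-Cre Stat3f/f tumours. Only Alb-Cre Stat3f/f 3 lay below every WT tumour, and none lay above. Its log2 fold change was -0.40 ± 0.39 (interval -1.22 to 0.42, edgeR adjusted p = 0.615). Without the 5 acinar-rich tumours it was -0.08 ± 0.45.

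Cxcl1, a close paralog of Cxcl2, was scarcer than Cxcl2 in each of the 12 tumours. WT tumours had 1.18, 1.79 and 5.35 CPM and Alb-Cre Stat3f/f tumours 0.857, 2.15 and 6.08. Single tumours stood high in both groups, WT 1 at 5.35 and Alb-Cre Stat3f/f 2 and 6 at 6.08 and 3.93, and the rest lay between 0.857 and 2.62. It had a log2 fold change of 0.23 ± 0.47 (interval -0.75 to 1.203, edgeR adjusted p = 0.838), and -0.12 without Alb-Cre Stat3f/f 2. Reads of Cxcl1, Cxcl2 and Cxcl3 could be shared, and the handling of such reads is not given in these sources.

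Cxcl3 and Ppbp were near the lower limit of what these libraries resolve. Cxcl3 had 1 to 26 counts in a WT and 3 to 15 in an Alb-Cre Stat3f/f tumour, or 0.139, 1.45 and 2.96 CPM against 0.641, 1.62 and 3.04. Its log2 fold change was 0.18 ± 0.53 (interval -0.93 to 1.28, edgeR adjusted p = 0.894). Its sign did not hold: it was -0.68 without the acinar-rich tumours, -0.47 with an acinar score (the mean log2 CPM of the acinar list) as covariate, -0.06 without WT 6 and -0.04 without Alb-Cre Stat3f/f 2.

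Ppbp encodes the precursor of the platelet chemokine CXCL7. WT tumours had 1.09, 2.26 and 4.02 CPM and Alb-Cre Stat3f/f tumours 1.01, 2.46 and 7.22. The 2 highest values, 7.22 and 7.21, were in Alb-Cre Stat3f/f 1 and 4, both acinar-rich. The log2 fold change was 0.58 ± 0.51 (interval -0.49 to 1.66, edgeR adjusted p = 0.575) with all tumours and -0.89 ± 0.68 without the 5 acinar-rich ones. Of the 12 platelet and megakaryocyte genes 3 passed the filter and 0 passed the test, with a median log2 fold change of -0.13, and their summed level ran from 119 to 230 CPM in WT, against 121 to 197 in Alb-Cre Stat3f/f tumours. Most of that was Thbs1 and Pf4 together. Thbs1 ran from 63.5 to 119 CPM in WT and from 56.5 to 129 in Alb-Cre Stat3f/f tumours. Pf4, which macrophages also make, ran from 49.7 to 102 CPM in WT and from 58.1 to 104 in Alb-Cre Stat3f/f tumours. The part of acinar content in the Ppbp values was not tested beyond these fits.

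Summed over the 5 ligands, the level was 110.0 ± 33.6 CPM (SD, n = 6) for WT hosts and 96.9 ± 29.5 CPM (SD, n = 6) for Alb-Cre Stat3f/f hosts, a range of 59.5 to 136 and of 50.6 to 132. Cxcl5 took 83.7 ± 6.40% of that sum in WT, against 83.8 ± 5.07% in Alb-Cre Stat3f/f tumours. Cxcl2 took 10.1 ± 4.51% and 7.80 ± 2.90%, and the other 3 ligands each took under 9% in every tumour. The make-up of the ligand pool thus overlapped between hosts for each ligand.

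Cxcr2, the receptor for all 5 ligands and a gene of mature neutrophils, was the member with the smallest p among those tested. WT tumours had 2.62, 3.92 and 6.74 CPM and Alb-Cre Stat3f/f tumours 4.58, 6.31 and 8.11, from 17 to 54 and 26 to 62 counts. WT 1, 5 and 6 lay between 2.62 and 2.78 CPM, below every Alb-Cre Stat3f/f tumour, while WT 2, 3 and 4 lay between 5.06 and 6.74, inside their range. Alb-Cre Stat3f/f 2, 4 and 5 lay above every WT tumour. The log2 fold change was 0.63 ± 0.28 (interval 0.04 to 1.22), with an unadjusted edgeR p of 0.0383 and an adjusted one of 0.227. Cxcr2 therefore did not pass. Over 20 alternatives its log2 fold change ran from 0.52 to 0.81 and its adjusted p from 0.169 to 0.637. Cxcr1, the related receptor, had 5 counts in all WT and 7 in all Alb-Cre Stat3f/f tumours.

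**Figure D2:**
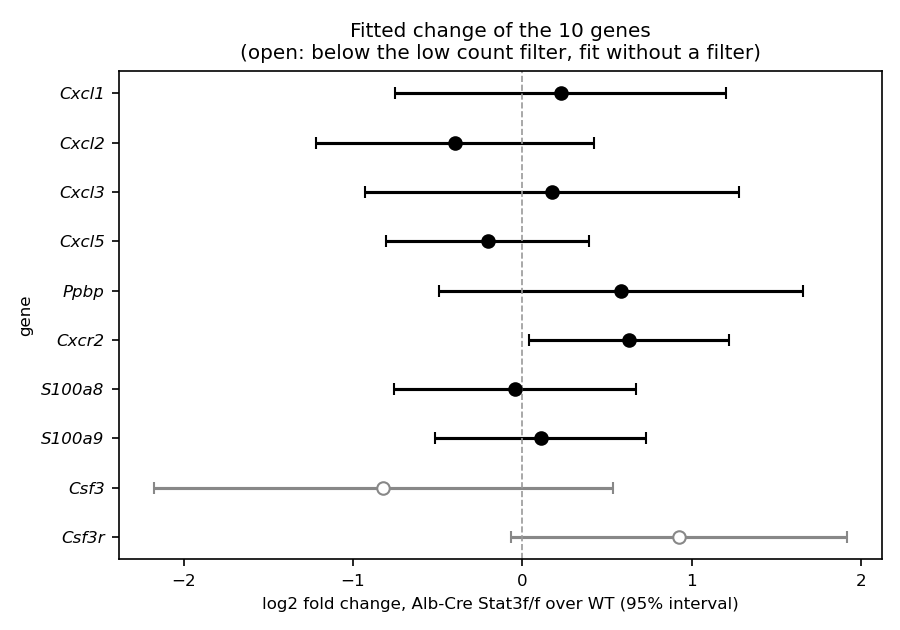
Log2 fold change of each gene (x axis, Alb-Cre Stat3f/f over WT, genes on the y axis) with its 95% interval from the edgeR fit. Filled points passed the low count filter, and open points (Csf3 and Csf3r) come from the fit without a filter. Among the 10 intervals that of Cxcr2, from 0.04 to 1.22, is the one that does not cross 0, and it is not adjusted for the number of genes.

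S100a8 and S100a9 were the most abundant neutrophil transcripts of the set and did not pass the test. S100a8 had 17.1, 37.4 and 68.7 CPM in WT, against 25.5, 34.8 and 50.3 in Alb-Cre Stat3f/f tumours. The WT tumours held both the 2 lowest values (WT 1 and WT 5) and the highest (WT 3), and the Alb-Cre Stat3f/f tumours all lay inside the WT range. Its log2 fold change was -0.05 ± 0.33 (interval -0.76 to 0.67, edgeR adjusted p = 0.959). The sign turned in 8 of 21 alternatives, up to 0.21 without WT 3.

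S100a9 had 24.7, 50.7 and 84.0 CPM in WT, against 41.8, 57.2 and 89.1 in Alb-Cre Stat3f/f tumours. Alb-Cre Stat3f/f 4 alone lay above every WT tumour, and the lowest value was that of WT 1. The log2 fold change was 0.11 ± 0.29 (interval -0.52 to 0.73, edgeR adjusted p = 0.880). For both genes the interval on the linear scale, 0.590 to 1.59-fold for S100a8 and 0.6997 to 1.66-fold for S100a9, leaves out a 2-fold change in either direction.

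The 2 calprotectin subunits followed each other closely. The count ratio of S100a9 to S100a8 was 1.54 ± 0.317 (SD, n = 6) for WT hosts and 1.63 ± 0.128 (SD, n = 6) for Alb-Cre Stat3f/f hosts, within 1.18 to 1.98 overall. Set against Cxcr2, S100a8 had 6.52, 9.27 and 10.2 counts per Cxcr2 count in WT tumours (lowest, median and highest), against 4.41, 5.58 and 8.23 in Alb-Cre Stat3f/f tumours. In 5 of 6 Alb-Cre Stat3f/f tumours this ratio lay below every WT tumour, the exception being Alb-Cre Stat3f/f 1. For S100a9 per Cxcr2 it was 4 of 6, with medians of 13.5 and 8.38. These ratios were looked at after the levels were known and were not tested.

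Csf3 and Csf3r were below the low count filter, so their fold changes come from the fit without one. Csf3 had 3 to 15 counts in a WT tumour and 0 to 10 in an Alb-Cre Stat3f/f tumour, or 0.490, 1.04 and 1.94 CPM against 0, 0.535 and 1.502. Alb-Cre Stat3f/f 1, 2 and 3 lay below every WT tumour, and Alb-Cre Stat3f/f 2 had 0 counts, which allows a level of up to 0.701 CPM (3 counts, counting error only). The log2 fold change was -0.82 ± 0.67 (interval -2.18 to 0.53, edgeR adjusted p = 0.554). Adding an acinar score to the fit gave -0.45 ± 0.81.

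Csf3r, a gene of neutrophils and their precursors, had 3 to 23 counts in WT, against 9 to 21 in Alb-Cre Stat3f/f tumours. In CPM these were 0.416, 1.10 and 2.72 against 1.59, 2.07 and 4.29. In 5 WT tumours the level lay below every Alb-Cre Stat3f/f tumour, and WT 4, at 2.72 CPM, lay above all but Alb-Cre Stat3f/f 3. Its log2 fold change was 0.93 ± 0.49 (interval -0.07 to 1.92, unadjusted p = 0.0662, edgeR adjusted p = 0.343), and it ran from 0.69 to 1.33 over 19 alternatives. The growth factor and its receptor thus had fold changes of opposite sign, neither of which passed.

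Over the 12 tumours, 28 pairs of tested members were compared by their log2 CPM. S100a8 and S100a9 had Pearson r = 0.926 and Spearman rho = 0.923, with permutation p of 2e-05 and 6e-05 (adjusted 0.00056 and 0.00168), and r = 0.888 without the 2 tumours farthest from the median. Their r was 0.928 in WT, against 0.948 in Alb-Cre Stat3f/f tumours. Cxcr2 had r = 0.729 with S100a8 (rho = 0.608, permutation p 0.00779 and 0.0400, adjusted 0.0650 and 0.280), 0.970 in WT, against 0.542 in Alb-Cre Stat3f/f tumours, and 0.595 without the 2 farthest tumours. Cxcl1 and Cxcl2 had r = 0.711 (rho = 0.699, permutation p 0.00929 and 0.0147, adjusted 0.0650 and 0.205), 0.519 in WT, against 0.959 in Alb-Cre Stat3f/f tumours, and 0.629 without the 2 farthest. Cxcr2 and S100a9 had r = 0.720 (rho = 0.664, permutation p 0.0073 and 0.0220, adjusted 0.0650 and 0.206), and 0.539 without the 2 farthest. Only the calprotectin pair passed after adjustment. Cxcl5 and S100a8 had r = 0.440 and rho = 0.497 (permutation p 0.154 and 0.106, adjusted 0.481 and 0.546), 0.323 without the 2 farthest. None of the 8 members had a relation with the acinar share that passed a permutation test, the smallest p being 0.214 for Pearson's r and 0.0805 for Spearman's rho, both for Cxcl3. Without the 2 tumours farthest from the median acinar share, r moved from 0.364 to 0.701 for Ppbp and from 0.388 to 0.619 for Cxcl3, and these were not tested.

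**Figure D3:**
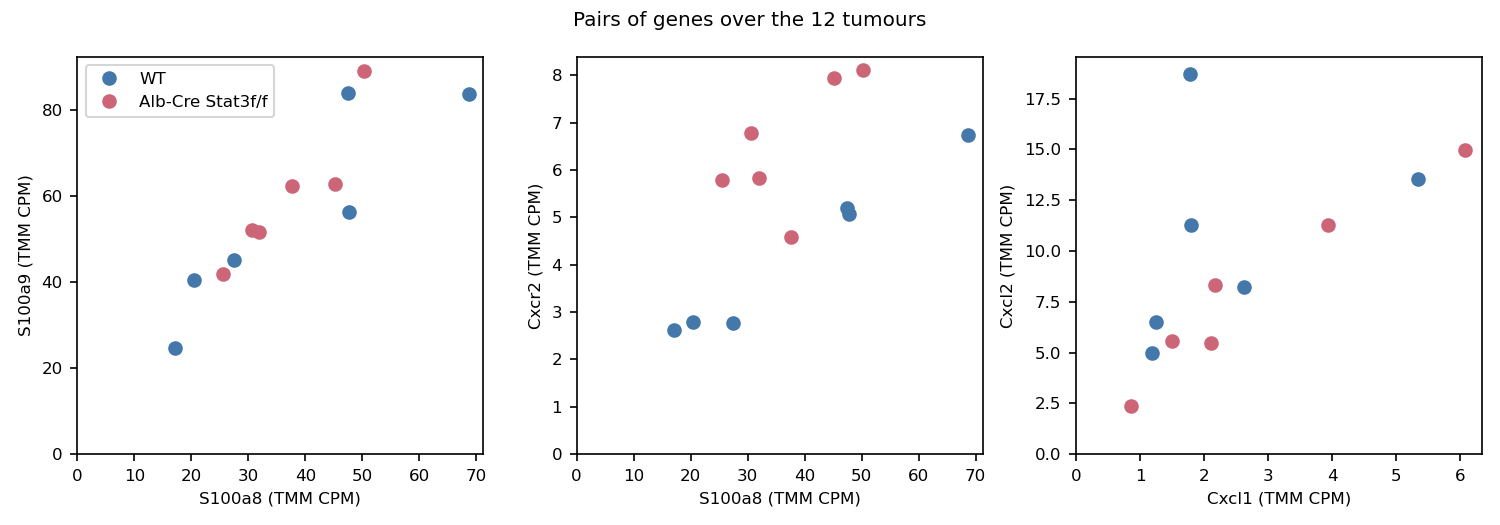
TMM-scaled CPM of S100a9 against S100a8, of Cxcr2 against S100a8 and of Cxcl2 against Cxcl1 (linear axes), 1 point per tumour, WT in blue and Alb-Cre Stat3f/f in red. The S100a8 and S100a9 points follow 1 line in both groups (r = 0.926 on the log scale), and in the middle panel most red points lie above the blue ones of like S100a8 level.

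The genes with the most similar pattern to each tested member over the 12 tumours were found by Pearson r of log2 CPM, as a description. For S100a8 and for S100a9 the nearest gene of 12856 was the other one of the pair. For Cxcl5 they were Clca3b, Zfp719 and Fmo5 (r = 0.878, 0.860 and 0.833), for Cxcr2 Tyms, Myb and Tent5a (0.912, 0.899 and 0.888), and for Cxcl2 Rnf126, Ccdc43 and Pidd1 (0.912, 0.906 and 0.905). For Cxcl1 they were Wsb2, Raly and Coa4, for Cxcl3 Zfp235, Gtpbp2 and Ddx51, and for Ppbp Cnbp, Tdrd7 and Mettl14. No other member was among the 3 nearest of any ligand.

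Several genes that define neutrophils were scarce. Ly6g, the surface marker of mouse neutrophils, had 12 counts in all WT and 15 in all Alb-Cre Stat3f/f tumours and was at 0 in 4 of the 12. Mpo and Elane, enzymes of the primary granules that are transcribed in bone marrow precursors, had 27 and 11 counts in WT, against 38 and 37 in Alb-Cre Stat3f/f tumours. Alb-Cre Stat3f/f 1 and 4 held 13 and 23 of the Mpo and 9 and 23 of the Elane counts. Prtn3, a further granule gene, had 9 to 28 counts in WT and 5 to 34 in Alb-Cre Stat3f/f tumours. Its highest level, 7.29 CPM, was in Alb-Cre Stat3f/f 3, where Mpo and Elane were at 0. Ngp and Camp, proteins of the secondary granules, ran from 0 to 125 and 0 to 28 counts in WT, against 0 to 119 and 0 to 47 in Alb-Cre Stat3f/f tumours. WT 3 had the highest Ngp count at 125, but its 15.6 CPM lay below the 17.9 CPM of Alb-Cre Stat3f/f 4. S100a8 was highest in WT 3, at 68.7 CPM. Alb-Cre Stat3f/f 6 had 0 counts of each of Ngp, Camp, Elane and Mpo, all listed as granule genes of the precursor stage. The same tumour had 31.9 CPM of S100a8, 7.35 of Retnlg (a marker of mature neutrophils), 5.83 of Cxcr2 and 3 counts of Ly6g.

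Lcn2 and Ltf are secondary granule genes that ductal epithelium also makes. Lcn2 had 59.5 to 95.05 CPM in WT, against 61.7 to 88.4 in Alb-Cre Stat3f/f tumours, a log2 fold change of 0.07 ± 0.12. Ltf had a median of 26.1 CPM in WT, against 13.2 in Alb-Cre Stat3f/f tumours, for a log2 fold change of -0.999 ± 0.58 (edgeR adjusted p = 0.384).

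**Figure D4:**
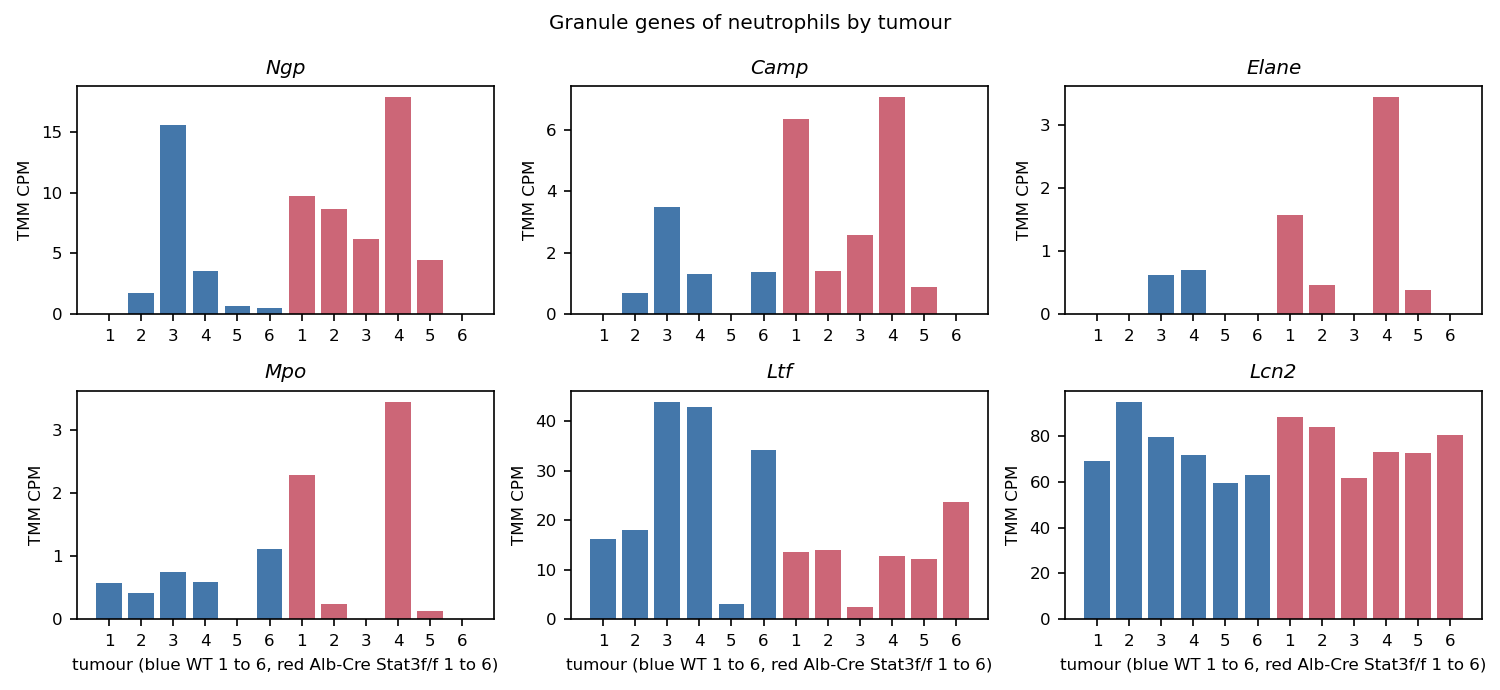
TMM-scaled CPM (bars from 0) of 6 neutrophil granule genes in each tumour, WT 1 to 6 in blue and Alb-Cre Stat3f/f 1 to 6 in red. Ngp, Camp, Elane and Mpo peak in Alb-Cre Stat3f/f 4 and are at 0 in Alb-Cre Stat3f/f 6, while Lcn2 stays between 59.5 and 95.05 CPM throughout.

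Other genes of neutrophils and of their recruitment were taken from lists, and several members of these lists rose. Over all 12856 tested genes 2.23% were called higher and 0.747% lower. In 1.37% every Alb-Cre Stat3f/f tumour lay above all WT tumours. These shares stand beside the counts of each list below. Of 28 mature neutrophil genes 18 were tested, 2 rose and 0 fell, and the median log2 fold change was 0.68 against 0.00 over all genes. Among the 18, 14 had a positive and 4 a negative log2 fold change, with Pglyrp1 at -0.62 ± 0.37 (edgeR adjusted p = 0.394). The other 10 were below the low count filter. Which cells these transcripts came from was not tested. Fpr2, a receptor for formyl peptides and for serum amyloid A, rose from 5.59 ± 1.57 to 12.7 ± 3.82 CPM (log2 fold change 1.18 ± 0.25, edgeR adjusted p = 0.0127), and 5 of 6 tumours exceeded the WT maximum. It passed in 20 of 20 alternatives. Retnlg, a marker of mature neutrophils, had a log2 fold change of 0.83 ± 0.39 (edgeR adjusted p = 0.249), and Mmp9, a gelatinase of neutrophil granules that macrophages and tumour cells also make, one of -0.53 ± 0.48 (adjusted p = 0.601).

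Of 19 granule and oxidase genes 12 were tested, 2 rose and 0 fell, with a median of 0.67. Both that rose encode the phagocyte NADPH oxidase, shared by neutrophils, monocytes and macrophages. Cybb rose from 87.3 ± 13.8 to 156 ± 28.8 CPM (log2 fold change 0.84 ± 0.13, edgeR adjusted p = 0.00173) and Ncf1 from 58.9 ± 6.62 to 99.1 ± 15.4 CPM (0.75 ± 0.12, edgeR adjusted p = 0.00156). For both genes the 6 values of the Alb-Cre Stat3f/f hosts exceeded the WT maximum, as for 1.37% of all tested genes.

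In the trafficking list, 21 of 22 genes were tested, 5 rose and 0 fell, with a median of 0.59. The 5 were Jaml, Itgb2, Alox5ap, Itgam and Itgal. Itgb2, the beta 2 chain of the leukocyte integrins, rose from 17.8 ± 5.37 to 37.3 ± 7.90 CPM (log2 fold change 1.07 ± 0.19, edgeR adjusted p = 0.00485, 6 of 6 tumours). Its partner chains Itgam and Itgal rose by 0.78 ± 0.18 and 0.93 ± 0.22 on the log2 scale (edgeR adjusted p = 0.0200 and 0.0248). Itgam had an adjusted p of 0.0533, 0.0601 and 0.0521 without WT 6, Alb-Cre Stat3f/f 1 and 2. Itgal had 0.0555 to 0.0760 without any one of WT 1, 3 and 6 and Alb-Cre Stat3f/f 1 and 2. Without the acinar-rich tumours the adjusted p was 0.277 for Itgam and 0.1003 for Itgal, at log2 fold changes of 0.54 and 1.03. Alox5ap, needed to make the neutrophil attractant leukotriene B4, rose by 0.98 ± 0.18, and Jaml, a leukocyte adhesion molecule, by 1.07 ± 0.16. These genes are expressed by monocytes, macrophages and lymphocytes as well as by neutrophils.

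In the list of G-CSF and granulopoiesis signalling, which also holds Csf3r, 14 of 16 genes were tested, 2 rose and 0 fell, with a median of 0.40. They were Lyn, a kinase of myeloid and B cells (log2 fold change 0.57 ± 0.10, edgeR adjusted p = 0.00508), and Cebpa, a transcription factor of myeloid cells (0.51 ± 0.13, edgeR adjusted p = 0.0332). Cebpa had an adjusted p of 0.0530 to 0.0835 without any one of WT 1, 3, 5 and 6 and Alb-Cre Stat3f/f 1, 2, 3 and 6. Lyn passed without each of the 12 tumours. Without the acinar-rich ones together the adjusted p was 0.144 for Lyn and 0.153 for Cebpa, at log2 fold changes of 0.46 and 0.55. Of the genes that induce or restrain CXCR2 ligands, 20 of 23 were tested, 0 rose and 0 fell by edgeR, 5 had an unadjusted p under 0.05 (against 19.4% of all tested genes), and the median was 0.12. Il1b had a log2 fold change of -0.41 ± 0.21, Tnf -0.65 ± 0.31, Nfkbia 0.28 ± 0.10 and Traf3ip2, an adaptor of interleukin 17 receptors, 0.45 ± 0.18 (edgeR adjusted p = 0.307, 0.256, 0.112 and 0.172). Il17a had 0 counts in each of the 12 tumours, which allows up to 0.341 to 0.701 CPM in a library.

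Among receptors and relatives of calprotectin, 15 of 17 genes were tested, 1 rose and 0 fell, and the median was -0.13. The gene that rose was Cd36, a scavenger receptor of macrophages, endothelium and fat cells (log2 fold change 1.34 ± 0.35, edgeR adjusted p = 0.0415), and it was 0.25 with an adjusted p of 0.910 without the acinar-rich tumours. Its adjusted p was 0.0557 to 0.107 without any one of WT 2 to 6 and Alb-Cre Stat3f/f 1 to 3.

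CXC chemokines that do not bind CXCR2 formed a further list. Of 10 such genes (Cxcl15, a chemokine of the ligand cluster with an unsettled receptor, included) 9 were tested, 1 rose and 0 fell, with a median of 1.05. Cxcl9 to Cxcl13 had log2 fold changes of 1.05 to 1.46, above those of the CXCR2 ligands (-0.40 to 0.58). Pf4, Cxcl14, Cxcl16 and Cxcl17, at 0.28, 0.46, 0.02 and -0.47, lay in or next to the range of the ligands. Cxcl10, an interferon-induced ligand of CXCR3 on the same chromosome (92346638 to 92348889, minus strand), rose from 5.61 ± 0.530 to 12.7 ± 6.48 CPM (log2 fold change 1.19 ± 0.26, edgeR adjusted p = 0.0172, no overlap with WT). It did not pass without Alb-Cre Stat3f/f 1 (adjusted p = 0.0508) or by limma-voom (0.0501). Cxcl9, its neighbour, had a log2 fold change of 1.46 ± 0.43 (edgeR adjusted p = 0.101), and passed by DESeq2 (0.0142) and limma-voom (0.0305). The difference in change between these genes and the CXCR2 ligands was not tested.

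**Figure D5:**
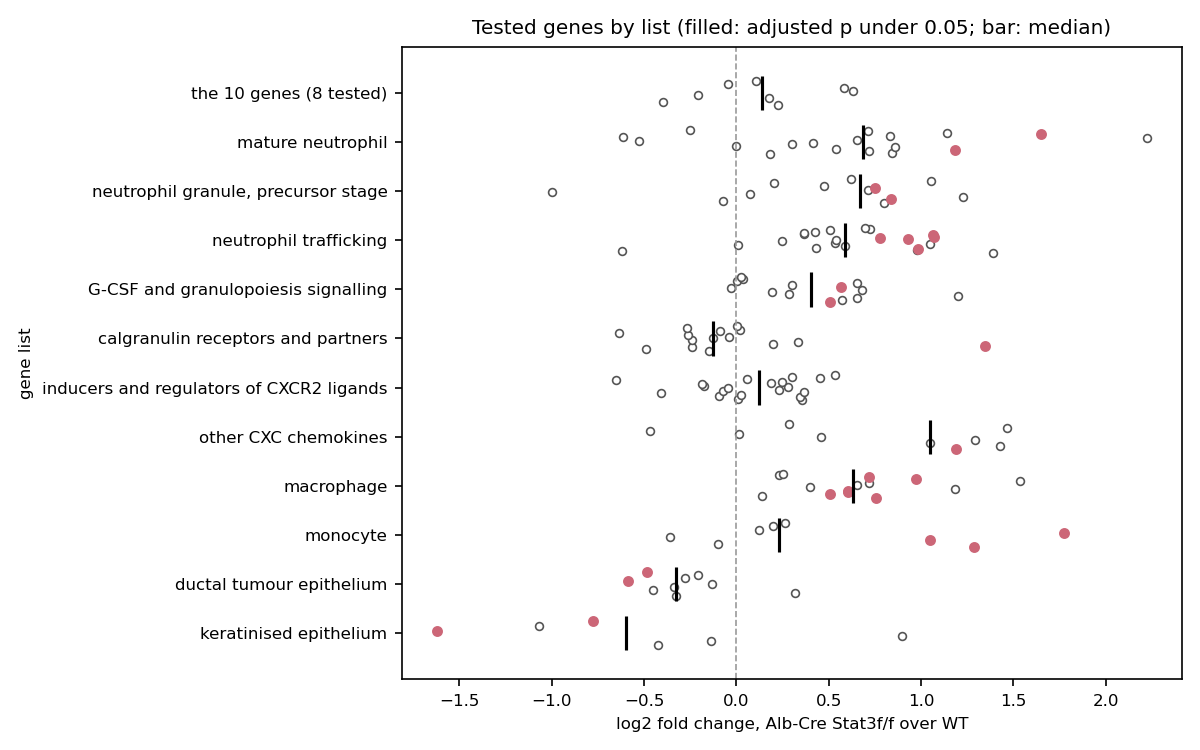
Log2 fold change of each tested gene (x axis, Alb-Cre Stat3f/f over WT) in the 10 genes and in 11 lists (y axis). Filled points passed the edgeR test at an adjusted p under 0.05, open points did not, and the bar is the list's median. The 10 genes have no filled point and a median of 0.14, while the mature neutrophil, trafficking and macrophage lists have medians of 0.68, 0.59 and 0.63.

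Markers of other cell types that make members of these lists moved as well, where 2.23% of all tested genes were called higher and 0.747% lower. Of 14 macrophage genes 6 rose and 0 fell (median 0.63, summed level 2153 to 3810.4 CPM in WT, against 2769 to 4441 in Alb-Cre Stat3f/f tumours), and of 8 monocyte genes 3 rose and 0 fell (median 0.23). Of the ductal epithelial genes 0 of 9 rose and 2 fell, Krt7 and Sox9 (median -0.33, summed level 3598 to 4261 CPM in WT, against 2694 to 3382 in Alb-Cre Stat3f/f tumours). Of the keratinised epithelial genes 0 of 6 tested rose and 2 fell, Sprr1a and Krt14 (median -0.60). Of 10 fibroblast genes 1 rose, Dcn (median 0.44), and of 19 tested acinar genes 0 passed, with a median of 2.54. Without the acinar-rich tumours Adgre1, a macrophage gene, had an adjusted p of 0.0531, and Sox9, Krt7, Sprr1a, Krt14 and Dcn had 0.160, 0.230, 0.496, 0.385 and 0.201. In that order the log2 fold changes of these genes were then 0.85, -0.47, -0.40, -0.63, -1.45 and 0.77. With all tumours they were 0.76, -0.49, -0.59, -0.77, -1.62 and 0.96. Mrc1 and C1qa, also among the 6 macrophage genes that rose, were not followed through the alternatives. With all tumours their edgeR adjusted p was 0.0438 and 0.0445. F10, one of the 3 monocyte genes, had 0.0556 to 0.0855 without any one of WT 1, 2, 4 and 6 and Alb-Cre Stat3f/f 1, 2 and 6. Krt14 had 0.0636 to 0.109 without any one tumour other than WT 2, WT 5 and Alb-Cre Stat3f/f 5, and Dcn 0.0560 to 0.0809 without any one of WT 1, 2, 3 and 6 and Alb-Cre Stat3f/f 1, 2 and 3. The part of these cell types in the levels of the 10 genes was not tested.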

How the data were processed

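Counts per gene symbol were deposited by the authors for 12 libraries, 1 per tumour, as whole numbers without normalisation. Per the labels, RNA came from fixed sections (RNeasy FFPE kit) and libraries from a QuantSeq 3' mRNA-Seq FWD kit. The submitters' processing notes name STAR and the build mm10. No source used here gives versions, the counting tool, the annotation or the strand setting, and no molecular identifiers are stated, so intervals and limits cover counting error only.

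Of 24982 entries, 26 were bare numbers and no symbols (0.0690 to 0.166% of counts) and were left out. Genes were kept by filterByExpr (minimum count 10, total 15, proportion 0.7), scaled by TMM and compared in R 4.3.3 with edgeR 4.0.16 by the robust quasi-likelihood test, genotype as the only term, two-sided, with Benjamini-Hochberg adjustment over 12856 genes at 0.05. Every adjusted p is from this test unless another tool is named. The SE is the fold change over the root of the F statistic, and intervals are 95%, unadjusted. Genes below the filter were fitted without it. CPM are TMM-scaled, and log2 CPM used a prior count of 2. Correlations used 100000 permutations. Alternatives used limma 3.58.1 and DESeq2 1.42.0, among others. No 2 libraries of 1 genotype were close enough to be 1 library (chi-square per gene of at least 12.9). The code was tested on simulated counts.

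Members and lists were chosen with earlier results of these data known. Named were all members, up to 4 genes past the threshold per list (else the 2 of smallest p), 8 fixed genes and the 3 nearest genes per member. The text names part of these, and 1 gene of the mature neutrophil list is not reported here. Retnlg, Ltf, Mmp9, Tnf, Cxcl9, Itgal, Cxcr1, Camp, Ngp, Prtn3, Pglyrp1, Mrc1 and C1qa were named after their values were seen.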

Additional observations from a re-analysis of the deposited data

Results flagged for a closer look

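In groups of 6 tumours, 4 values stood apart from the rest of their group by Dixon's criterion, among 64 groups of 32 measures examined. For independent, normally distributed values chance flags about 1 in 20 groups, or 3.2 here. Some of these measures are low counts or share a gene, so that rate is only a rough guide. Cxcl1 in WT 1 was 5.35 CPM, with the next WT tumour at 2.62. Ngp in WT 3 was 15.6 CPM, the tumour with the highest S100a8 level. Ctsg, a primary granule protease with 6 counts in all WT and 4 in all Alb-Cre Stat3f/f tumours, was 0.624 CPM in WT 3 and 0.513 CPM in Alb-Cre Stat3f/f 5, in each case from 5 counts or fewer.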

How the results depend on the processing

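The count of members called stayed at 0 in both directions under all 21 alternatives. In the fit of genes with at least 10 CPM in 6 tumours, only Cxcl5, S100a8 and S100a9 among the members were tested. That fit could not call the other members. The genes called over the whole table were 287 higher and 96 lower. They became 609 and 286 by DESeq2, 142 and 38 in the fit with an acinar score, and 83 and 14 without the tumours over 15% acinar, where fewer tumours were left. Leaving out 1 tumour gave 141 to 471 higher and 37 to 222 lower. The tumour numbers of the titles recur in both genotypes, and the labels do not say whether they pair tumours. Of 6 same-numbered pairs 2 had a correlation of deviations over 0.1, and 0 tumours correlated best with their own number. With so few pairs, compared over all genes at once, this check cannot exclude a pairing. With the replicate block 145 genes were higher and 44 lower, and Cxcl10, Itgam, Itgal, Cebpa, Cd36, F10 and Krt14 had adjusted p of 0.0509 to 0.108. The cause of these shifts was not tested.

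Directions held in all alternatives for Cxcl2, Cxcl5, Cxcr2, Csf3 and Csf3r. S100a8 was 0.11 by limma-voom, 0.14 with the acinar covariate and 0.091 with the replicate block, and -0.20 to 0.21 when 1 tumour was left out. S100a9 was -0.038 without the acinar-rich tumours and -0.048 to 0.26 when 1 tumour was left out. Cxcl3 was -0.47 with the acinar covariate, -0.68 without the acinar-rich tumours and -0.063 to 0.52 without 1 tumour. Ppbp was -0.89 and Mmp9 0.26 without the acinar-rich tumours. Cxcl1 ran from -0.12 to 0.67 without 1 tumour. The depth of these libraries limits Cxcl3, Ppbp, Cxcl1, Csf3 and Csf3r most, at 0 to 48 counts per tumour.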
